A study of Sus scrofa with 42 samples.

Results

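BTG4 and the deadenylase genes of the CCR4-NOT and PAN2-PAN3 complexes were followed through the first cleavages of pig embryos. The genes were chosen by name: BTG4, CNOT1, CNOT2, CNOT3, CNOT6, CNOT6L, CNOT7, CNOT8, PAN2 and PAN3. All 10 were found among the 15351 genes of the expression table, and all 10 passed the filter on low values that 8116 genes passed. Single blastomeres were sequenced from embryos of 2 kinds, made by in vitro fertilization (IVF) and by parthenogenetic activation (PA), in which electric pulses, followed by 6-dimethylaminopurine and cytochalasin B, start development of the oocyte without sperm. The 1-, 2-, 4- and 8-cell stages were taken at 19, 27, 48 and 72 h, counted from the end of the incubation with sperm for IVF and from the pulses for PA, all from oocytes matured in vitro, with no genetic modification. Each method gave 21 cells of 10 embryos, with 3 embryos at each of the 1-, 2- and 4-cell stages and 1 embryo at the 8-cell stage. These were 3, 6, 9 and 3 cells at the 4 stages. The embryo was therefore the replicate, its value being the mean of its blastomeres, and the lone 8-cell embryo of each method was assumed to vary like the other embryos.

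An oocyte stores mRNA that serves the first cell cycles, and much of it is removed while the embryonic genome is switched on. Removal usually starts with shortening of the poly(A) tail by a deadenylase. In the CCR4-NOT complex the scaffold CNOT1, with CNOT2 and CNOT3, carries a pair of nucleases, CNOT7 or CNOT8 and CNOT6 or CNOT6L. BTG4, a protein of oocytes and early embryos, binds CNOT7 or CNOT8 and brings the complex to maternal mRNA, and the PAN2-PAN3 complex trims long tails, with PAN3 as its adaptor.

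In coordinates of Sscrofa11.1, BTG4 (ENSSSCG00000015020) lies on the minus strand of chromosome 9 from 39236413 to 39301867. CNOT7 (ENSSSCG00000006983) lies on chromosome 17 from 4926156 to 4949607, and CNOT8 (ENSSSCG00000017067) on chromosome 16 from 68329793 to 68350260. CNOT6 (ENSSSCG00000014009) lies on chromosome 2 from 78130842 to 78202504, and CNOT6L (ENSSSCG00000008989) on chromosome 8 from 73194478 to 73305308. CNOT1 (ENSSSCG00000002799) and CNOT3 (ENSSSCG00000003264) lie on chromosome 6 from 20271594 to 20372920 and from 55973869 to 55991321. CNOT2 (ENSSSCG00000000502) and PAN2 (ENSSSCG00000000393) lie on chromosome 5 from 34426399 to 34550088 and from 21710772 to 21748950, and PAN3 (ENSSSCG00000009319) lies on chromosome 11 from 5487337 to 5611652. CNOT8 overlaps GEMIN5 on the other strand by 3109 bases. The strandedness of the libraries is not given in the sources used here, and the log2 values of CNOT8 and GEMIN5 had a Pearson r of 0.764 over the 42 cells, so the level of CNOT8 is uncertain. The level of PAN2 is uncertain too, since it shares 15921 bases with STAT2 on the same strand. CNOT3 and CNOT7 overlap LENG1 and ZDHHC2 on the other strand by 2868 and 2509 bases, with r of 0.167 and 0.226 over the 42 cells. BTG4 overlaps C11orf88 on the other strand, which reached at most 0.160 FPKM in any cell.

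Levels are FPKM, fragments counted per kilobase of gene and scaled to the mapped reads of the cell, so that genes of different length can be compared. The reads assigned to genes, recovered from the smallest steps of the FPKM, were 4755470 to 15997296 per cell with a median of 10833042. Amplified reads without molecular identifiers are not independent molecules, and precision was taken from the spread between embryos. The blastomeres PA 4-cell-1-4 and PA 4-cell-2-1 nearly repeated PA 2-cell-1-2 and PA 2-cell-2-1, with Pearson r of 0.999 and 0.999 over log2 values, against at most 0.908 for any other pair of cells. For the main results on PA 4-cell embryos, values without these PA 4-cell blastomeres are given too, and PA levels of single 4-cell embryos include them. The mitochondrial share of summed FPKM had a median of 11.05% at the 1-cell, 14.8% at the 2-cell, 33.2% at the 4-cell and 41.9% at the 8-cell stage. The part of this change in the results was not tested. FPKM are relative values, so fewer copies of an mRNA and more of all others cannot be told apart. Oocyte markers, of which 7 of 9 were found, summed to 299 to 786 FPKM in every 1- and 2-cell blastomere. ZP2, ZP4, GDF9, BMP15 and OOSP2 reached FPKM of 1 in 27 to 36 of the 42 cells, ZP3 in 10 and ZAR1 in 4. Of 10 cumulus and granulosa cell markers 5 were found, and their sum was 0.0430 to 15.9 FPKM in these cells, 0.0210 to 32.3 FPKM at the 4-cell and at most 0.0664 FPKM at the 8-cell stage. STAR reached 30.0 FPKM, HAS2 32.2 and CYP19A1 6.31 FPKM in single cells, and TNFAIP6 and INHBA at most 0.214 FPKM. The part of these markers in the results was not tested.

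BTG4 was by far the highest of the 10 genes before the 8-cell stage, and it fell to a low level in the 8-cell embryos of both methods. In IVF 1-cell embryos BTG4 was at 675, 762 and 754 FPKM, and in IVF 2-cell embryos at 922, 634 and 1269 FPKM. In IVF 4-cell embryos it was at 521, 268 and 296 FPKM, and in the 8-cell embryo at 2.44 FPKM. The 4-cell embryos lay below every 2-cell embryo, and the 8-cell embryo lay far below all of them. In PA embryos BTG4 was at 490, 522 and 602 FPKM at the 1-cell stage and at 617, 692 and 765 FPKM at the 2-cell stage. PA 4-cell embryos had 320, 340 and 120 FPKM, and the PA 8-cell embryo had 9.77 FPKM. The order of the group means was the same by stage in both methods. IVF 2-cell (941 ± 318, SD, n = 3), IVF 1-cell (730 ± 48.05, SD, n = 3) and PA 2-cell embryos (691 ± 73.7, SD, n = 3) came first, with overlapping embryos. PA 1-cell embryos followed at 538 ± 57.6 FPKM (SD, n = 3), then IVF 4-cell embryos at 362 ± 139 (SD, n = 3) and PA 4-cell embryos at 260 ± 122 (SD, n = 3). PA 1-cell and IVF 4-cell embryos overlapped, as did IVF 4-cell and PA 4-cell embryos, and both 8-cell embryos came last.

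**Figure D1:**
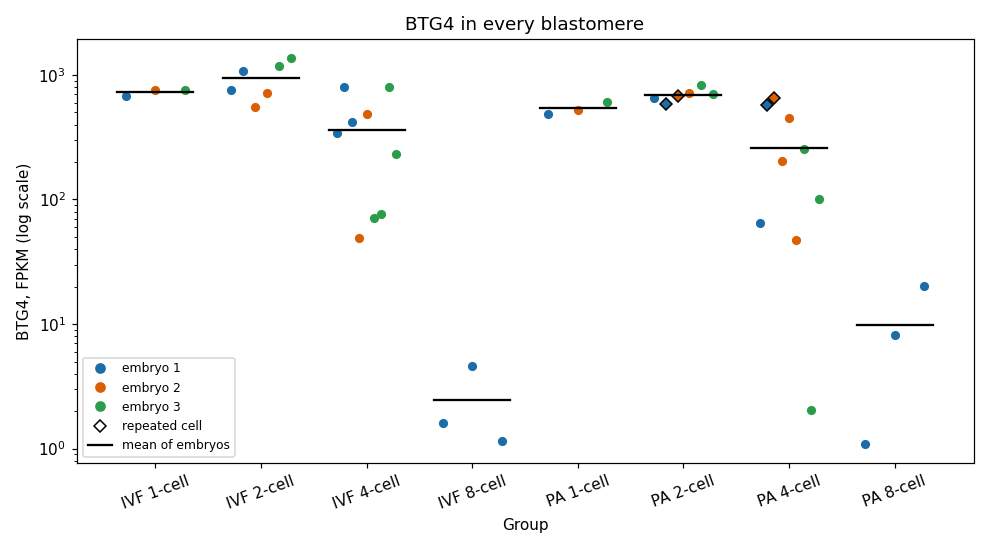
BTG4 in each of the 42 blastomeres, in FPKM on a log axis, by method and stage. Colours give the embryo within a group, black bars the mean of the embryos, and diamonds the cells of the 2 near-identical pairs. The 1- and 2-cell blastomeres lie close together, the 4-cell blastomeres spread between 2.03 and 803 FPKM, and the 8-cell blastomeres lie between 1.10 and 20.1 FPKM.

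Among all 15351 genes BTG4 ranked between 14 and 25 in the 1- and 2-cell embryos, between 23 and 110 in the 4-cell embryos, and in the 8-cell embryos at 2824 (IVF) and 1781 (PA). Of the summed FPKM of the 10 genes, BTG4 made up 84.3% to 93.5% in the 12 embryos of the 1- and 2-cell stages. Its share was 65.8% to 82.9% in the 4-cell embryos. In the 8-cell embryos it was 7.44% (IVF) and 12.3% (PA).

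The largest step of BTG4 between neighbouring stages was that from the 4- to the 8-cell stage. The mean of IVF 4-cell embryos was 148 times the IVF 8-cell level, and the mean of PA 4-cell embryos was 26.6 times the PA 8-cell level. On the log2(FPKM + 1) scale BTG4 fell by 6.65 in IVF embryos (SE 0.627, adjusted p = 1.81e-06 by limma with Benjamini-Hochberg adjustment) and by 4.46 in PA embryos (SE 0.627, adjusted p = 0.000156). Without the repeated blastomeres the PA difference was -3.52 and passed (adjusted p = 0.00319, limma). The 8-cell blastomeres still gave 38 to 1264 recovered reads of BTG4, so the low level was not a missing value. How many molecules these amplified reads stand for is not known. From the 1-cell stage BTG4 fell by 7.73 in IVF (adjusted p = 4.37e-07, limma) and by 5.64 in PA embryos (adjusted p = 9.43e-06, limma), with group means 299 and 55.1 times apart. The fall to the 8-cell stage differed between methods by -2.20 (SE 0.887, adjusted p = 0.228, limma, 95% interval from -4.05 to -0.341), IVF minus PA, which did not pass. When only the compared groups entered the fit, the falls from the 4-cell stage kept their size and lost their call (adjusted p = 0.114 in IVF and 0.161 in PA, limma). The summed oocyte markers were also lower in the 8-cell blastomeres, at 1.09 to 196 FPKM, and their part in the result was not tested.

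The step from the 2- to the 4-cell stage was smaller and less certain. BTG4 differed by -1.39 in IVF (SE 0.443, adjusted p = 0.114, limma) and by -1.54 in PA embryos (SE 0.443, adjusted p = 0.188, limma), and in both methods the embryos did not overlap. Without the repeated PA 4-cell blastomeres, PA 4-cell embryos averaged 140 ± 86.8 FPKM (SD, n = 3) and the difference was -2.48, which passed (adjusted p = 0.0046, limma). Without IVF 4-cell embryo 1 the IVF difference was -1.68 and passed (adjusted p = 0.0303, limma), and it also passed without PA 4-cell embryo 3 (-1.39, adjusted p = 0.0423, limma). Under scaling of each cell by its median ratio over nuclear genes the differences were -0.15 in IVF and 0.35 in PA embryos, so the direction at this step depended on how cells were scaled. The falls to the 8-cell stage kept their direction under that scaling, at -5.37 in IVF and -3.86 in PA embryos. From the 1- to the 2-cell stage BTG4 differed by 0.31 in IVF and 0.36 in PA embryos (SE 0.443 and 0.443, adjusted p = 1 in both, limma).

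IVF and PA embryos did not differ in BTG4 past the threshold at any tested stage. IVF minus PA was 0.44 at the 1-cell (95% interval from -0.485 to 1.37), 0.39 at the 2-cell (-0.534 to 1.32) and 0.55 at the 4-cell stage (-0.377 to 1.48), with adjusted p of 1, 0.985 and 0.634 by limma. Without the repeated PA 4-cell blastomeres the 4-cell difference was 1.49, which did not pass either (adjusted p = 0.0992, limma). At the 8-cell stage there was 1 embryo of each method and no test. The 3 blastomeres of the IVF embryo had 1.60, 4.58 and 1.14 FPKM of BTG4. Those of the PA embryo had 1.10, 8.09 and 20.1 FPKM, of which 2 lay above all IVF blastomeres.

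Sister blastomeres held similar amounts of BTG4 at the 2-cell stage and very different amounts at the 4-cell stage. In the 2-cell embryos (n = 6) the higher sister had 1.06 to 1.43 times the FPKM of the lower one. In IVF 4-cell embryo 1 the sisters had 340, 803 and 420 FPKM, in embryo 2 they had 48.8 and 487 FPKM, and in embryo 3 they had 71.3, 77.2, 803 and 231 FPKM. In PA 4-cell embryo 3 they had 256, 2.03 and 101 FPKM, and in embryo 2, without the repeated cell, 205, 453 and 47.4 FPKM. High and low blastomeres were thus found side by side in embryos of both methods. The lowest PA cells also had low sums of the oocyte markers, 116 FPKM in PA 4-cell-3-3 and 40.4 FPKM in PA 4-cell-2-4, against 561 to 680 FPKM in the other 5 PA cells without the repeated ones. The lowest IVF cell, with 48.8 FPKM of BTG4, had a marker sum of 591 FPKM. Over these 16 cells the log2 values of BTG4 and the marker sum had r = 0.566 and rho = 0.35, with r = 0.626 in the 7 PA and 0.165 in the 9 IVF cells, where sisters share an embryo. The part of this in the spread of BTG4 was not tested. The range between sisters on the log2 scale had a median of 0.228 at the 2-cell stage (n = 6 embryos, 0.0809 to 0.516) and of 3.29 at the 4-cell stage without the repeated cells (n = 5 embryos, 1.24 to 6.41). With the repeated cells the 4-cell median of BTG4 was 3.38 (n = 6 embryos). With these cells the range over all genes tested had a median over embryos of 0.578 at the 2-cell and 1.08 at the 4-cell stage. A gene at a low level has a small range on this scale, so BTG4 and the median over all genes are not closely comparable. CNOT1 and PAN3 had larger 4-cell medians than BTG4, at 4.43 and 4.41, and the other deadenylase genes had smaller ones. A range grows with the number of sisters, which was 2 at the 2-cell stage and 2 to 4 at the 4-cell stage. IVF 4-cell embryo 2 with 2 sisters had a BTG4 range of 3.29. Under the other scalings, without the repeated cells, the 4-cell median of BTG4 was 3.54 with nuclear genes rescaled to the same total. It was 2.82 with median ratios. These lay above 0.243 and 0.352 at the 2-cell stage. In PA 4-cell embryo 3, the embryo with the lowest BTG4 of its stage, 50.7% to 52.2% of summed FPKM was mitochondrial in each blastomere, and the part of this in its BTG4 level was not tested.

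The nucleases that BTG4 binds, CNOT7 and its paralogue CNOT8, lay below BTG4 in all embryos up to the 4-cell stage. By the mean of the blastomeres CNOT8 lay above BTG4 in the 8-cell embryos of both methods and CNOT7 in PA. CNOT8 was there at 7.03 FPKM in the IVF and 14.0 FPKM in the PA 8-cell embryo. The IVF value came from 1 blastomere with 21.0 FPKM beside sisters with 0.0148 and 0.0331 FPKM, where BTG4 was at least 1.14 FPKM in each. The PA blastomeres had 0.123, 4.75 and 37.2 FPKM of CNOT8. CNOT7 was at 30.0, 17.4 and 15.1 FPKM in IVF 1-cell embryos, 31.2, 16.8 and 17.3 FPKM at the 2-cell stage, 7.07, 23.1 and 10.99 FPKM at the 4-cell stage and 1.51 FPKM in the 8-cell embryo. The 8-cell embryo lay below all others of IVF. CNOT7 fell by 3.06 from the IVF 1-cell to the 8-cell stage (SE 0.991, adjusted p = 0.0443, limma), a call that did not hold without any 1 of the IVF 1- and 2-cell or PA 1-cell embryos or PA 2-cell embryo 1 or 2 (adjusted p from 0.0511 to 0.0989, limma) and whose direction was gone under median-ratio scaling, where the difference was 0.000221. In PA embryos CNOT7 was at 11.9, 29.0 and 20.4 FPKM at the 1-cell, 24.1, 20.3 and 45.3 at the 2-cell, 14.2, 16.0 and 2.24 at the 4-cell stage and 12.4 FPKM in the 8-cell embryo. The PA 8-cell value came from 1 blastomere with 36.3 FPKM beside sisters with 0.0783 and 0.786 FPKM, and PA 1- to 8-cell embryos differed by -0.60 (adjusted p = 0.753, limma). Without the repeated blastomeres the PA 4-cell mean of CNOT7 was 7.11 in place of 10.8 FPKM, and its 2- to 4-cell difference -2.08 in place of -1.63 (adjusted p = 0.0752 and 0.393, limma). CNOT8 varied widely within groups, from 5.21 to 31.9 FPKM among IVF 1-cell, 0.0392 to 14.7 among IVF 4-cell and 0.691 to 38.3 among PA 4-cell embryos. CNOT8 passed in no comparison.

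CNOT6L and CNOT6, the other pair of nucleases, stood at different levels. CNOT6L was at 17.3, 29.7 and 32.0 FPKM in IVF 1-cell embryos, at 29.7, 27.9 and 41.8 at the 2-cell, 19.03, 29.7 and 32.9 at the 4-cell stage and 5.65 FPKM at the 8-cell stage. In PA embryos it was at 10.04, 24.9 and 23.1 FPKM at the 1-cell, 4.07, 21.2 and 20.9 at the 2-cell, and 8.81, 2.89 and 0.0331 at the 4-cell stage, with 4.46 FPKM at the 8-cell stage. At the 4-cell stage every IVF embryo thus lay above every PA embryo. The IVF minus PA difference there was 3.02 (SE 0.773, 95% interval from 1.40 to 4.63), whose adjusted p of 0.0767 by limma did not pass, and the difference of the 2- to 4-cell step between methods was 1.70 (SE 1.09, adjusted p = 0.893, limma). The 4-cell difference passed without IVF 4-cell embryo 1 (3.24, adjusted p = 0.0339, limma) and without PA 4-cell embryo 1 (3.78, adjusted p = 0.0333, limma), and without the repeated PA blastomeres it was 3.03 (adjusted p = 0.0572, limma). Under median-ratio scaling it was 1.62 (adjusted p = 0.369, limma).

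CNOT6 was lower than CNOT6L in all embryos except PA 4-cell embryo 3 and the PA 8-cell embryo. It was at 7.36, 5.83 and 5.41 FPKM in IVF 1-cell, 4.72, 3.09 and 5.27 in 2-cell and 0.544, 0.762 and 0.158 in 4-cell embryos, and at 0.00185 FPKM in the 8-cell embryo. Every IVF embryo at a later stage lay below every embryo of the stage before. The differences were -1.85 from the 2- to the 4-cell stage (adjusted p = 0.164, limma) and -2.84 from the 1- to the 8-cell stage (adjusted p = 0.0542, limma), neither of which passed. The latter passed at a pseudocount of 0.1 (-5.94, adjusted p = 0.0244, limma). In PA embryos CNOT6 was at 0.943, 1.14 and 2.72 FPKM at the 1-cell, 0.698, 4.27 and 2.05 at the 2-cell, and 0.0282, 1.54 and 0.564 at the 4-cell stage. The PA 8-cell embryo had 9.28 FPKM, nearly all of it from PA 8-cell-1-2 with 27.8 FPKM. The PA 4- to 8-cell difference was 2.69 (adjusted p = 0.0898, limma). Of the CNOT6 level of PA 4-cell embryo 2 most came from the repeated blastomere with 6.10 FPKM, and without the repeated cells the difference was 3.13 and passed (adjusted p = 0.0362, limma).

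**Figure D2:**
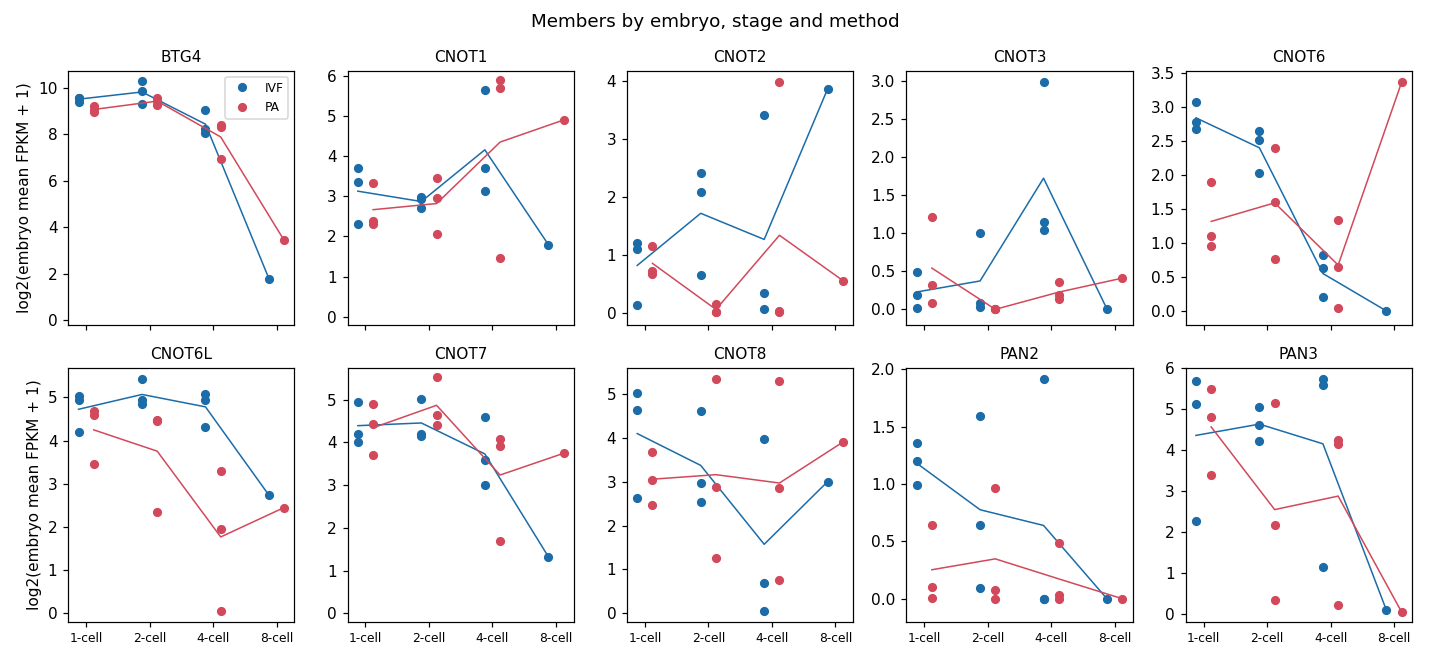
Levels of the 10 genes in each of the 20 embryos, as log2(embryo mean FPKM + 1) against stage, with lines through the group means. Blue points are IVF and red points PA embryos, and the vertical scale differs between panels. BTG4 is the gene with both the highest level and the clearest decline, while CNOT1, CNOT2, CNOT8 and PAN3 differ by several log2 units between embryos of 1 group.

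The log2 difference between CNOT6L and CNOT6 in an embryo was followed over the stages, since it shows which of the paralogues prevailed. In IVF embryos it was 1.13, 2.17 and 2.36 at the 1-cell, 2.42, 2.82 and 2.77 at the 2-cell, 3.70, 4.12 and 4.87 at the 4-cell and 2.73 at the 8-cell stage. In PA embryos it was 2.51, 3.59 and 2.69 at the 1-cell, 1.58, 2.07 and 2.84 at the 2-cell, 3.25, 0.616 and -0.60 at the 4-cell and -0.91 at the 8-cell stage. IVF embryos thus lay higher at each stage up to the 4-cell stage without overlap, while PA embryos overlapped between stages and their lowest values were at the 4- and 8-cell stages. The IVF 8-cell value is nearly the level of CNOT6L alone, as CNOT6 was at 0.00185 FPKM. Its place below the 4-cell values thus depends on the 1 added before taking logs. The CNOT6L came from 1 blastomere with 16.8 FPKM beside sisters with 0.0601 and 0.132 FPKM. In the PA 8-cell embryo the highest blastomeres had 13.3 FPKM of CNOT6L and 27.8 of CNOT6. Over the 10 IVF embryos the log2 difference had a Spearman rho of 0.762 with stage (Pearson r = 0.673 with the log2 cell number), and over the 10 PA embryos a rho of -0.623 (r = -0.743). By a two-sided exact permutation test of embryos over stages, with Benjamini-Hochberg adjustment over the 6 relations computed, adjusted p was 0.0621 and 0.0943 for rho (unadjusted 0.0142 and 0.0629) and 0.0494 and 0.0294 for r (unadjusted 0.0329 and 0.0147). Leaving out the 8-cell embryo and 1 of the 6 embryos tied as next farthest from the median stage gave r from 0.878 to 0.922 in IVF and from -0.869 to -0.452 in PA embryos. Without the repeated PA 4-cell blastomeres rho was -0.548 in PA embryos (adjusted p = 0.166, exact permutation). The IVF relation had a rho of 0.938 at a pseudocount of 0.1 and of 0.459 at a pseudocount of 5, so its strength depended on how values near 0 were treated. The difference between the methods in this relation was not tested.

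For BTG4 itself, rho with stage was -0.736 in IVF and -0.623 in PA embryos (r = -0.729 and -0.761). Exact permutation gave adjusted p of 0.0621 and 0.0943 for rho (unadjusted 0.0207 and 0.0629) and 0.00946 and 0.00946 for r (unadjusted 0.00315 and 0.00298). Without the 8-cell and 1 other embryo r was between -0.677 and -0.527 in IVF and between -0.660 and -0.540 in PA embryos, where rho with the first of the tied embryos left out did not pass (permutation p = 0.0679 and 0.157). The strength of the relation of BTG4 with stage thus rested in part on the 8-cell embryos, and under median-ratio scaling rho was 0.170 in IVF and 0.321 in PA embryos, the other direction. The log2 difference between CNOT7 and CNOT8 had no relation with stage that passed, with rho of 0.0189 in IVF and -0.258 in PA embryos (exact permutation adjusted p = 0.973 and 0.567, r = 0.0255 and -0.281 with adjusted p = 0.945 and 0.532).

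**Figure D3:**
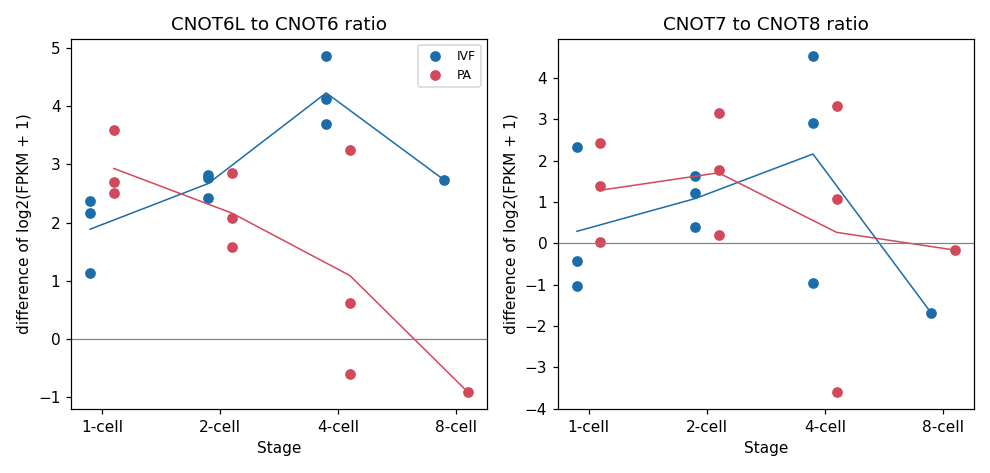
Log2 difference between CNOT6L and CNOT6 (left) and between CNOT7 and CNOT8 (right) in each embryo against stage, with lines through the group means, on the log2(FPKM + 1) scale. A value above 0 means more of the first gene. The left panel rises to 4.87 in IVF 4-cell embryos and falls to -0.91 in the PA 8-cell embryo, and the right panel scatters between -3.60 and 4.54.

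The scaffold genes were low beside BTG4 at the 1- and 2-cell stages and varied between sisters. CNOT1, the backbone of the complex, was at 3.99 to 12.03 FPKM in the 1-cell embryos of IVF and 3.93 to 9.01 FPKM in those of PA, and at 3.18 to 9.92 FPKM in 2-cell embryos. IVF 4-cell embryos had 7.72, 12.2 and 48.9 FPKM and PA 4-cell embryos 50.9, 59.1 and 1.74 FPKM, so single embryos stood well above the earlier stages. These levels came from few blastomeres, such as 150 FPKM in IVF 4-cell-3-4 and 102 and 196 FPKM in PA 4-cell-1-3 and 2-4. The 2- to 4-cell differences of 1.29 in IVF and 1.53 in PA embryos did not pass (adjusted p = 0.495 and 0.620, limma), nor did that of PA without the repeated blastomeres (1.97, adjusted p = 0.301, limma), where the PA 4-cell mean was 59.2 in place of 37.3 FPKM. In 8-cell embryos CNOT1 was at 2.48 FPKM in IVF and 29.0 FPKM in PA. Scaffold genes had the largest shares of the summed FPKM of the 10 genes there. These were CNOT2 with 41.6% in the IVF and CNOT1 with 36.3% in the PA 8-cell embryo. The IVF 8-cell blastomeres had 0.00863, 0.142 and 40.8 FPKM of CNOT2. CNOT2 reached FPKM of 1 in 11 of the 42 cells and CNOT3 in 7, and neither passed in any comparison. The highest CNOT2 values were 58.9 FPKM in PA 4-cell-2-2 and 40.8 FPKM in IVF 8-cell-1-2. CNOT3 had its highest group mean in IVF 4-cell embryos, with 6.91, 1.21 and 1.06 FPKM against at most 1.33 FPKM in any other embryo, and its IVF 2- to 4-cell difference of 1.35 had an adjusted p of 0.162 (limma).

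PAN3 was at 3.81, 50.3 and 33.6 FPKM in IVF 1-cell, 32.2, 17.7 and 23.4 in 2-cell and 51.7, 1.21 and 46.7 in 4-cell embryos, and at 0.0601 FPKM in the IVF 8-cell embryo. In PA embryos it was at 44.0, 9.46 and 26.9 FPKM at the 1-cell, 0.249, 34.4 and 3.45 at the 2-cell and 18.0, 16.7 and 0.164 at the 4-cell stage, and at 0.0268 FPKM at the 8-cell stage. Both 8-cell embryos lay below all other embryos of their method. Without the repeated blastomeres the PA 2- to 4-cell difference turned from 0.33 to -0.71, neither of which passed (adjusted p = 1 and 0.881, limma). From the 1- to the 8-cell stage the differences were -4.27 in IVF (SE 1.92, adjusted p = 0.145, limma) and -4.52 in PA (SE 1.92, adjusted p = 0.133, limma), neither of which passed. At a pseudocount of 0.1 the PA difference was -7.47 and passed (adjusted p = 0.0407, limma). PAN2, the nuclease of that complex, reached FPKM of 1 in 6 of the 42 cells and was listed at 0 in all 3 IVF 8-cell blastomeres.

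**Figure D4:**
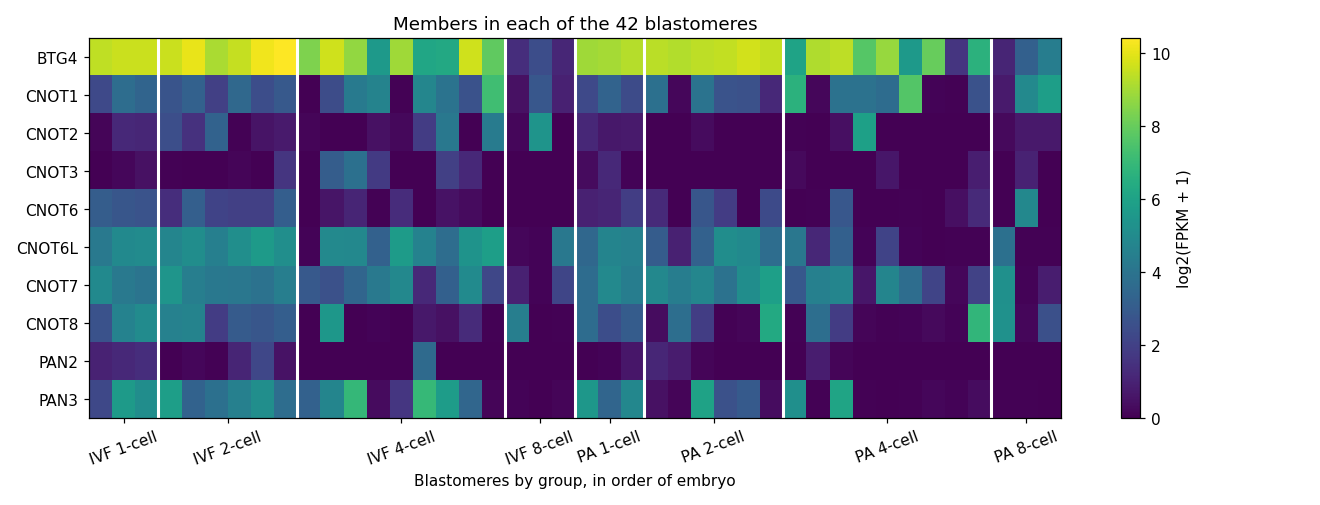
Heat map of log2(FPKM + 1) of the 10 genes (rows) in the 42 blastomeres (columns), with white lines between the 8 groups. BTG4 is bright in all 1- and 2-cell blastomeres and dark in the 8-cell blastomeres, and the other genes form isolated bright cells at the 4- and 8-cell stages.

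Counted over the 10 genes, few differences passed beyond those of BTG4. From the 4- to the 8-cell stage 1 of the 10 genes fell in IVF embryos, where 6.97% of all tested genes were called in either direction, and 1 of 10 fell in PA embryos, where 9.99% were called. From the 1- to the 8-cell stage 2 of 10 fell in IVF, BTG4 and CNOT7, with 14.3% of all genes called, and BTG4 alone in PA, with 13.8% called. From the 1- to the 2-cell stage limma called none of the 10, and none had an unadjusted p below the threshold, with 0% of all genes called in IVF and 0.0986% in PA embryos. From the 2- to the 4-cell stage it called none, and 3 of 10 had an unadjusted p below the threshold in IVF (BTG4, CNOT3, CNOT6) and 3 of 10 in PA (BTG4, CNOT6L, CNOT7), with 17.6% and 10.8% of all genes at such an unadjusted p and 1.11% and 0.394% called. Between IVF and PA none was called at the 1-, 2- or 4-cell stage, where 0.0493%, 0% and 0.554% of all genes were, and 1, 0 and 2 of the 10 had an unadjusted p below the threshold, beside 4.09%, 5.43% and 14.0% of all genes. The differences between methods in the 3 steps were called in 0%, 0% and 2.86% of all genes and in none of the 10, of which 0, 0 and 2 had an unadjusted p below the threshold, beside 2.80%, 5.35% and 14.5% of all genes. The median log2 difference of the 10 genes was -1.88 from the IVF 4- to 8-cell stage, against -0.38 over all genes, and 0.35 in PA embryos, against -0.15 over all genes. In each comparison the number of the 10 genes called was within 1 gene of what the share called over all genes would give. By unadjusted p this did not hold throughout, as with 3 of 10 beside 10.8% from the PA 2- to the 4-cell stage. From the IVF 4- and 1-cell to the 8-cell stage 4 and 5 of 10 had an unadjusted p below the threshold. All genes stood there at 19.4% and 29.6%. In PA embryos these were 2 and 3 of 10, beside 20.7% and 26.4%.

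**Figure D5:**
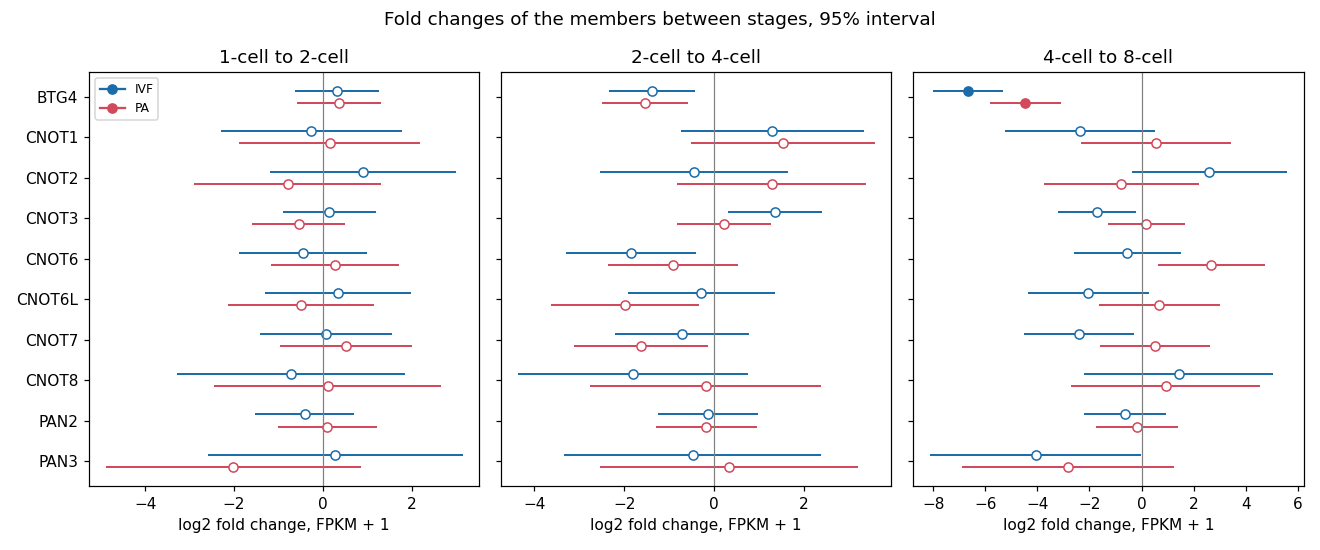
Log2 fold changes of the 10 genes for the 3 steps between stages, with 95% intervals from limma, on the log2(FPKM + 1) scale. Blue is IVF and red PA, and filled points passed an adjusted p of 0.05 with a change of at least 2-fold. The filled points are BTG4 from the 4- to the 8-cell stage, at -6.65 and -4.46, and the intervals of the other genes are several log2 units wide.

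The genes whose levels were most like BTG4 over the 20 embryos were WEE2, a kinase that holds oocytes in meiosis (Pearson r = 0.973), RNF34, a ubiquitin ligase (0.964), VPS50, a trafficking protein (0.964), TECTA (0.959) and ATG4A, an autophagy protease (0.959). The 20 points share their libraries and the same 4 stages, and the 8-cell embryos are low in all of these genes. A low level at the 8-cell stage came with this choice, so their differences are given as a description. From the 4- to the 8-cell stage WEE2 differed by -7.09 in IVF and by -4.33 in PA embryos, or -2.55 in PA without the repeated 4-cell blastomeres. The best r for the other 9 genes was lower, from 0.797 for CNOT8 to 0.909 for CNOT6L. They were CDCA5 for CNOT1 (0.820), ADAT1 for CNOT2 (0.860), ENSSSCG00000034949 for CNOT3 (0.865), CBR4 for CNOT6 (0.803) and ENSSSCG00000031705 for CNOT6L. For CNOT7 it was RTKN2 (0.873), for CNOT8 ENSSSCG00000010954, for PAN2 RBM41 (0.887) and for PAN3 PPFIA1 (0.867). Among the 10 genes, the levels of BTG4 were most like those of CNOT7 (r = 0.683) and PAN3 (r = 0.637).

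The wider mRNA decay pathway was read from lists of 79 other genes, of which 70 were found and 60 tested. Few of these genes passed, and those that did were decay factors of several kinds in both directions. From the 4- to the 8-cell stage 2 rose and 1 fell in IVF, and 4 rose and 1 fell in PA embryos, that is 5% and 8.33% of the 60, beside 6.97% and 9.99% of all genes. From the 1- to the 8-cell stage 4 rose and 3 fell in IVF, and 3 rose and 2 fell in PA embryos, that is 11.7% and 8.33%, beside 14.3% and 13.8% of all genes. By limma none was called from the 1- to the 2-cell stage (3 in IVF and 1 in PA embryos with an unadjusted p below the threshold, beside 2.66% and 4.85% of all genes) or from the 2- to the 4-cell stage (16 and 7, beside 17.6% and 10.8%). Without IVF 4-cell embryo 1, 11 list genes were called from the IVF 2- to the 4-cell stage, beside 9.08% of all genes in that fit. None was called between IVF and PA at the 1-, 2- or 4-cell stage (2, 3 and 11 with an unadjusted p below the threshold, beside 4.09%, 5.43% and 14.0% of all genes). No member of the lists of 4 other CCR4-NOT subunits, 5 other deadenylases and 3 terminal uridylation genes was called at any step.

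ZFP36L2, which binds AU-rich mRNA and recruits CCR4-NOT, rose from the 4- to the 8-cell stage in both methods, by 3.91 in IVF and 4.74 in PA embryos (adjusted p = 0.00128 and 0.000226, limma). Its 8-cell means of 15.1 and 26.5 FPKM came from blastomeres between 0 and 45.3 FPKM and between 0 and 78.5 FPKM. With blastomeres as samples the differences were 1.76 and 2.40, and the one in IVF did not pass (adjusted p = 0.199 and 0.0436, limma). EXOSC5, a subunit of the exosome, also rose in both, by 6.03 and 3.28 (adjusted p = 0.000343 and 0.0304, limma), to 79.7 and 8.68 FPKM. The call in PA did not hold with the mean of log2 values or with blastomeres as samples (1.60 in both, adjusted p = 0.319 and 0.278, limma), at a pseudocount of 0.1, with the replicate block or without PA 4-cell embryo 1 (adjusted p = 0.0578, 0.0660 and 0.0526, limma). DCP2, the decapping enzyme, had a difference of -3.09 in IVF embryos (adjusted p = 0.0339, limma), from 37.7 to 3.16 FPKM, and was not called in PA embryos, with 25.6 and 32.7 FPKM. The difference between methods in this step did not pass for DCP2. In PA embryos LSM1, of the ring that promotes decapping, rose by 5.52 and DIS3L, an exosome nuclease, by 5.55 (adjusted p = 0.0310 and 0.00713, limma). Among the sisters of the PA 8-cell embryo LSM1 ranged from 0 to 227 FPKM and DIS3L from 0 to 147 FPKM. With the mean of log2 values over blastomeres neither passed, at 2.16 for LSM1 and 2.34 for DIS3L (adjusted p = 0.517 and 0.184, limma), nor with blastomeres as samples (2.10 and 2.34, adjusted p = 0.367 and 0.205, limma). LSM1 also did not pass at a pseudocount of 0.1, with no filter or without PA 4-cell embryo 1 (adjusted p = 0.141, 0.0676 and 0.0634, limma). SAMD4B, an mRNA-binding repressor, had a difference of -4.06 in PA embryos (adjusted p = 0.0397, limma). The call of DCP2 in IVF and of SAMD4B in PA embryos did not hold without the repeated PA 4-cell blastomeres (adjusted p = 0.212 and 0.250, limma), and with only the compared groups in the fit none of these genes passed from the 4- to the 8-cell stage.

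From the 1- to the 8-cell stage EIF4E3, a cap-binding protein, had differences of -6.10 in IVF and -6.96 in PA embryos (adjusted p = 0.00489 and 0.00185, limma), from 80.6 to 0.135 FPKM and from 146 to 0.114 FPKM. CPEB1, which controls the poly(A) tails of stored maternal mRNA, fell by 3.81 in IVF embryos (adjusted p = 0.0415, limma), from 13.4 to 0.0136 FPKM. EIF4ENIF1, a partner of the cap-binding protein that represses stored mRNA, fell by 5.33 in PA embryos (adjusted p = 0.0420, limma), from 47.1 to 0.103 FPKM. In IVF embryos TOB2, of the same protein family as BTG4, rose by 4.03 (adjusted p = 0.00878, limma), a call that did not hold at a pseudocount of 0.1 (adjusted p = 0.0816, limma). ZFP36L2 and EXOSC5 rose and DCP2 fell in IVF embryos over this span too, and ZFP36L2, LSM1 and DIS3L rose in PA embryos. With blastomeres as samples the calls of ZFP36L2 in IVF and PA embryos and those of LSM1 and DIS3L over this span did not hold (adjusted p = 0.268, 0.0996, 0.538 and 0.496, limma), and that of DCP2 did not without the repeated blastomeres (adjusted p = 0.0733, limma). Of the 19 fits that left out 1 embryo, the IVF call of CPEB1 held in 13, the PA call of EIF4ENIF1 in 9 and the PA call of LSM1 in 11. The calls of CPEB1 and EIF4ENIF1 were lost at a pseudocount of 5 and under median-ratio scaling. That of EIF4ENIF1 was also lost without the repeated blastomeres, with no filter, with no trend and with the replicate block. CPEB1 went from 10.9 to 0.00705 FPKM in PA and EIF4ENIF1 from 52.6 to 3.27 FPKM in IVF embryos, neither of which was called.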

How the data were processed

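Single cells were lysed and their cDNA amplified and sequenced by the authors, who mapped reads to Sscrofa11.1 with HISAT2 and deposited FPKM per gene. The deposited FPKM are scaled within each cell, so a rise of some transcripts lowers the values of others. The labels describe another extraction procedure than the study's methods, and the methods were followed here. Versions, annotation release and strandedness are not given in the sources used here.

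A gene was tested if its FPKM was 1 or more in 3 or more cells. Tests used limma 3.58.1 (R 4.3.3) on log2(embryo mean FPKM + 1), with all 8 groups in 1 fit, a mean-variance trend and Benjamini-Hochberg adjustment over the 8116 genes. Called genes had an adjusted p below 0.05 and a change of at least 2-fold. The median SE over genes was 0.816 between groups of 3 embryos and 1.15 against an 8-cell embryo. The fit and the permutation test were tested on simulated data. Descriptive values came from Python 3.11.15, using numpy 2.4.6, scipy 1.17.1 and pandas 2.3.3. Reads per gene were recovered for depth and to see whether BTG4 had reads at the 8-cell stage, and entered no test. They came out whole, within 0.02 reads, for 11793 of 11803 genes.

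The 10 genes and the pathway lists were chosen with earlier results of these data known. Named were all 10 genes, the 5 genes most like BTG4 and 1 for each other gene by Pearson r over embryos, and up to 4 called genes per list and step. The values of 1 called list gene are not reported here. Samples are labelled by embryo and blastomere, and blastomeres of 1 embryo were averaged before the main fit. Its p-values measure the spread between embryos, pooled over all groups, and a group with 1 embryo adds nothing to that spread. Embryo numbers were not taken to pair samples across groups, except in an alternative with an embryo-number block, and whether they do was not settled. Of 21 same-numbered pairs of neighbouring groups 4 had deviations that correlated above 0.1. The 3 of them between PA 2- and 4-cell embryos had r between -0.0069 and 0.0154 without the repeated cells. Of the 21, 15 correlated best with their own number, with r over all pairs from -0.0224 to 0.355. The alternatives tried were other pseudocounts, filters and scalings, the mean of log2 values over blastomeres, blastomeres as samples, only the compared groups, no trend, an embryo-number block, and leaving out each embryo or the repeated cells. They were applied to the list genes and the genes like BTG4 after their values were seen.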

Additional observations from a re-analysis of the deposited data

Results flagged for a closer look

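Dixon's test on the log2 scale was applied to 40 sets of blastomeres of 1 group. In 11 of them the highest or lowest cell was set apart from the others by more than the 95% critical value. For normally distributed values this happens in about 1 in 20 sets, that is 2. That rate does not hold for sets of values near 0 with 1 cell above them, such as CNOT3 in PA 2-cell blastomeres. No excess is therefore read from 11 beside 2. Sister blastomeres are not independent, and 4 of the 11 cells belong to the near-identical pairs. The lowest BTG4 of the PA 4-cell stage was 2.03 FPKM in PA 4-cell-3-3, with 47.4 FPKM in the next cell. Among IVF 4-cell blastomeres CNOT6L was lowest in IVF 4-cell-1-1 at 0.0818 FPKM, with 8.50 FPKM in the next cell. IVF 4-cell-1-1 also had the fewest reads on genes of all cells, 4755470. Among IVF 2-cell blastomeres CNOT7 was highest in IVF 2-cell-1-1 at 41.7 FPKM, above 20.8 FPKM in the next cell. PA 2-cell-3-2 had 57.2 FPKM of CNOT7. Among IVF 4-cell blastomeres CNOT8 was highest in IVF 4-cell-1-2 at 44.1 FPKM, above 1.42 FPKM, while PA 4-cell-3-4 had 115 FPKM. Among PA 4-cell blastomeres CNOT2 was highest in PA 4-cell-2-2 at 58.9 FPKM, above 0.341 FPKM. Within their groups PAN2 was highest in IVF 4-cell-3-1 at 11.09 FPKM, above 0.00831 FPKM, and CNOT3 in IVF 2-cell-3-2 at 2.02 FPKM, above 0.103 FPKM. In cells of the near-identical pairs, CNOT6 was highest of the PA 4-cell blastomeres in PA 4-cell-2-1 at 6.10 FPKM. PAN2 was highest of them in PA 4-cell-1-4 at 0.794 FPKM. PA 2-cell-2-1 had the highest CNOT2 and CNOT3 of the PA 2-cell blastomeres, at 0.226 and 0.00812 FPKM, both near 0. IVF 2-cell blastomeres reached 8.65 and 2.02 FPKM.

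The step of DIS3L from the 4- to the 8-cell stage differed between IVF and PA embryos by -7.83 (SE 1.78, adjusted p = 0.0220, limma). DIS3L was at a mean of 6.997 FPKM in IVF 4-cell embryos, which ranged from 0.0136 to 14.9 FPKM. It was listed at 0 in all blastomeres of the IVF 8-cell embryo, and went from 0.0719 to 49.1 FPKM in PA embryos. The difference between methods did not pass at a pseudocount of 0.1 (-12.6), with blastomeres as samples (-3.39) or with only the compared groups in the fit. The PA 8-cell level came from 1 blastomere with 147 FPKM, and the difference did not pass with the mean of log2 values over blastomeres (-3.68, adjusted p = 0.274, limma).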

How the results depend on the processing

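The falls of BTG4 to the 8-cell stage kept their direction and their call under every alternative run except with only the compared groups in the fit, where the counts of called genes among the 10 were 0 from the 4- to the 8-cell stage in both methods. Over all alternatives the 4- to 8-cell difference of BTG4 ran from -7.09 to -5.37 in IVF and from -4.94 to -3.52 in PA embryos. Of 1778 fold changes of the 10 genes under other settings than leaving out an embryo, 1743 kept their side of the threshold, 27 came to pass, 5 no longer passed and 3 turned, all of these under median-ratio scaling: CNOT7 from the 1- to the 8-cell stage at 0.000221 in IVF, and CNOT3 and CNOT7 at 1.53 and 3.87 in PA embryos.

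Counts of the 10 genes called moved as follows. They are given without the share over all genes in each fit, so they are no result about the 10 genes as a set. From the PA 1- to the 8-cell stage 1 became 2 at a pseudocount of 0.1 and with the mean of log2 values (PAN3 joining), and 5 under median-ratio scaling. From the IVF 1- to the 8-cell stage 2 became 1 at a pseudocount of 5, under median-ratio scaling and with the embryo number as a replicate block (CNOT7 adjusted p = 0.0580, limma), and 4 with the mean of log2 values. From the PA 4- to the 8-cell stage 1 became 2 at a pseudocount of 5, with no filter, under median-ratio scaling, with no trend and without the repeated cells (CNOT6 joining each time). CNOT6 also made 1 of 0 for the difference between methods in that step with no filter and under median-ratio scaling. From the PA 2- to the 4-cell stage 0 became 1 under median-ratio scaling (CNOT1) and with the mean of log2 values and without the repeated cells (BTG4), and blastomeres as samples made 1 of 0 from the IVF 2- to the 4-cell stage and between IVF and PA at the 4-cell stage. Leaving out 1 embryo gave 1 to 3 from the IVF 1- to the 8-cell stage, and 0 to 1 from the IVF 2- to the 4-cell stage and between methods at the 4-cell stage, with no change elsewhere. The block changed no other call of the 10 genes, and 15 of 21 embryos correlated best with their own number.

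The relation of the CNOT6L to CNOT6 difference with stage passed in IVF embryos at a pseudocount of 0.1 and under median-ratio scaling (rho 0.938 in both, exact permutation adjusted p = 0.00143). Without 1 embryo its rho ran from 0.685 to 0.949 in IVF and from -0.858 to -0.474 in PA embryos, passing without the IVF 8-cell embryo or PA 4-cell embryo 1.

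Counts of list genes called moved too. Where the calls over all genes in the same fit are not given, these counts are no result about the lists. At a pseudocount of 0.1 the method difference in the last step had 0. At a pseudocount of 5 the IVF 4- to 8-cell step had 6 and the method difference 2. With no filter the PA 4- to 8-cell and 1- to 8-cell steps had 3 and 3, and the method difference 2. Under median-ratio scaling there were 12 and 19 from the IVF 4- and 1-cell to the 8-cell stage. Of all 7357 genes tested under that scaling, 968 rose and 173 fell, and 1494 rose and 118 fell, in these comparisons. In the PA 2- to 4-cell, 4- to 8-cell and 1- to 8-cell steps 7, 8 and 18 list genes were called. Over all genes 531, 1198 and 1725 rose and 6, 329 and 115 fell there. Between methods at the 4-cell stage 2 list genes were called, and for the method difference 7. With the mean of log2 values there were 5 (IVF 2- to 4-cell), 11 (IVF 1- to 8-cell), 2 (PA 2- to 4-cell), 1 (PA 4- to 8-cell) and 0 (method difference), and with blastomeres as samples 4 (IVF 2- to 4-cell), 1, 1 and 3 (PA 2- to 4-cell, 4- to 8-cell, 1- to 8-cell) and 0. In the IVF 2- to 4-cell step of these 2 settings 6.55% and 7.53% of all genes were called. With only the compared groups there were 0, 19, 0, 12 and 0 for the IVF and PA steps to the 8-cell stage and the method difference. Without the repeated cells the PA 2- to 4-cell step had 4. Leaving out 1 embryo gave 0 to 11 from the IVF 2- to the 4-cell, 2 to 5 from the IVF 4- to the 8-cell, 5 to 11 from the IVF 1- to the 8-cell and 0 to 2 from the PA 2- to the 4-cell stage. It gave 2 to 7 in both PA steps to the 8-cell stage, 0 to 5 between methods at the 4-cell stage, and 0 to 1 and 1 to 2 for the method difference in the 2- to 4-cell and 4- to 8-cell steps.

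Median-ratio scaling rested on 1064 genes found in all cells, with factors from 0.0389 to 4.17, and moved the median over all genes from -0.77 to 0 in the IVF and from -0.58 to -0.06 in the PA 1- to 8-cell comparison. Calls up and down went there from 489 and 668 to 1494 and 118 in IVF and from 615 and 504 to 1725 and 115 in PA embryos. From the 4- to the 8-cell stage they went from 302 and 264 to 968 and 173 in IVF and from 553 and 258 to 1198 and 329 in PA embryos. The cause of these changes was not tested. With 1 embryo of each method at the 8-cell stage, embryo-to-embryo spread there was not measured.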

Other observations

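Ranges between sister blastomeres in the other 9 genes lay on both sides of the range over all genes. At the 4-cell stage the range between sisters on the log2 scale had a median over 6 embryos of 4.43 for CNOT1, 4.41 for PAN3, 2.73 for CNOT8, 2.70 for CNOT6L and 1.80 for CNOT7, beside 1.08 over all genes tested. It was 1.31 for CNOT3, 1.14 for CNOT6, 0.184 for CNOT2 and 0.0668 for PAN2. At the 2-cell stage the medians were 1.33 for CNOT1, 1.97 for PAN3, 1.49 for CNOT8, 0.926 for CNOT6L 0.642 for CNOT7, 1.17 for CNOT6, 0.244 for CNOT2, 0.238 for PAN2 and 0.0415 for CNOT3, beside 0.578 over all genes tested. BTG4 was the gene of the 10 detected at FPKM of 1 or more in all 42 cells, followed by CNOT7 in 36, CNOT1 in 33 and CNOT6L in 31 cells. These ranges include the near-identical cells, and a gene at a low level has a small range on the log2(FPKM + 1) scale.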
